A study of Mus musculus with 6 samples.

Results

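The mitochondrial genome of the mouse carries its own small set of genes, and all of their RNAs were followed here: 13 mRNAs, 2 rRNAs and 22 tRNAs. They were taken as every row of the deposited gene table whose name starts with "mt-", which gave 37 of 54232 rows, 28 of them transcribed in the direction of the plus strand and 9 in that of the minus strand. RNA was sequenced from cardiomyocytes of adult male mice, released by collagenase perfusion, enriched by sedimentation and kept for 4 h on laminin, with 3 isolations of each strain. One strain carried UtyGt(XS0378)Wtsi, a gene trap in intron 4 of the Y-linked gene Uty (Uty gene trap), and the isogenic C57BL/6.Y<129P2> controls carried an intact Uty (wild type). Both Y chromosomes came from 129P2 mice and had been bred onto C57BL/6J by repeated mating of males to C57BL/6J females, so that by the study's breeding scheme the mitochondrial genome of both groups came from those females. The trap line derives from gene-trapped embryonic stem cells, and the labels describe the heart as ventricles where the study's text speaks of whole hearts. The labels letter the wild-type libraries e to g and the gene-trap libraries d to f, and values are given in that order.

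Mitochondrial DNA is transcribed by its own polymerase, POLRMT, from promoters on both strands, into long precursors that cover many genes. The tRNAs lie between the other genes like punctuation marks, and cutting the precursor at both ends of each tRNA, by mitochondrial RNase P and ELAC2, frees the rRNAs and mRNAs. The mRNAs encode core subunits of the respiratory chain and ATP synthase, on which heart muscle depends heavily, and the rRNAs and tRNAs serve only the ribosomes inside the organelle that translate them.

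Uty itself had 1093, 1017 and 877 normalized counts (reads divided by a library size factor) in wild type and 13.9, 10.5 and 8.03 with the trap, so the libraries matched their labels. The 6 libraries held between 28283654 and 48377453 reads in genes. Between 21615 and 22917 genes had a read in 5 libraries and 28619 in gene-trap f. Defining cardiomyocyte markers were high in both groups, with a summed level of 1239710 to 1296750 normalized counts in wild type and 1287190 to 1413230 with the trap for the 7 genes of that list. Markers of atrial cardiomyocytes differed more, with 4 of 5 higher at an adjusted p under 0.05 in limma, the threshold used throughout, and sums of 844 to 999 normalized counts in wild type against 1148, 10039 and 6199 with the trap. Of the markers of fibroblasts, 3 of 6 rose, of smooth muscle and pericytes 2 of 5, of endothelium 1 of 5 and of macrophages 1 of 5. Over all tested genes 4.55% rose by that rule. The fitted change was below 0, without passing, for 1 marker of smooth muscle and pericytes and 2 of macrophages. No marker of these lists had a count of 0. Small nucleolar RNAs, which reside in the nucleus, held 0.0114% to 0.0132% of nuclear-gene reads in wild type and 0.0198% to 0.0223% with the trap. Nuclear long non-coding RNAs did not share this direction. Of 4 tested, 0 passed and 3 had a fitted change below 0 (median log2 fold change -0.19). The part of these differences in the values that follow was not tested, and in bulk RNA fewer cells of a type, or fewer mitochondria per cell, cannot be told apart from less RNA in each.

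The sequences of the genes matter for reading their levels, because the nuclear genome holds near-identical copies of mitochondrial DNA. On chromosome 1, 7 annotated pseudogenes between 24611535 and 24616197 (GRCm38) follow each other in the same order as mitochondrial genes between 6381 and 11043, with spacings equal to within 1 base. Of the 37 genes, 11 lie wholly inside this copied stretch (6 mRNAs and 5 tRNAs) and 2 lie in it in part (mt-Co1 and mt-Nd4). The first 60 bases of mt-Nd3, the mRNA with the largest fall, are shown with those of its pseudogene Gm28438, and the capital marks the only base at which their aligned sequences differ (T3C, counted from the first base of mt-Nd3).
mt-Nd3: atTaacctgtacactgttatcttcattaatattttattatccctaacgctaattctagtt
Gm28438: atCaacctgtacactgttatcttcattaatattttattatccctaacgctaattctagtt
The former starts at base 9459 of the mitochondrial genome, and the latter spans 24613060 to 24613119 on the minus strand of chromosome 1. A sequenced read was 50 bases long, and 293 of the 299 windows of that length in mt-Nd3 occur unchanged in the pseudogene. The 6 others all start within the first or the last 3 possible positions.

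Among the tRNAs, 4 sequences are shown, all from the first part of the genome, because 3 of their RNAs fell and that of mt-Tm did not pass the test. In mt-Ti and mt-Tw the capitals mark the bases that also belong to the mRNA gene before them (mt-Nd1 and mt-Nd2), whereas mt-Tl1 and mt-Tm share no base with a gene of their strand.
mt-Tl1: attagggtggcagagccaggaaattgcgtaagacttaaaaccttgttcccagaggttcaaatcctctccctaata
mt-Ti: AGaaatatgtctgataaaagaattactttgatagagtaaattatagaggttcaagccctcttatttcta
mt-Tm: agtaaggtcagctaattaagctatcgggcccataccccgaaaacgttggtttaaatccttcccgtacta
mt-Tw: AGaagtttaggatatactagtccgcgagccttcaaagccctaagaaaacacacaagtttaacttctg
All 4 genes are on the plus strand. They occupy bases 2676 to 2750, 3706 to 3774, 3845 to 3913 and 4950 to 5016 of the mitochondrial genome.

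Taken as a class, RNAs of the mitochondrial genome made up less of the RNA in gene-trap cardiomyocytes. They held 54.7%, 52.2% and 46.9% of all reads in genes in wild type and 39.8%, 44.8% and 42.5% with the trap. Every gene-trap library lay below every wild-type library, with a difference of means of -8.89 percentage points (exact two-sided permutation p = 0.1, the smallest that 3 against 3 allow). The mRNAs alone held 50.9% ± 3.94 and 42.2% ± 2.51 (SD, n = 3 each). After normalization by library size factors, the summed level with the trap was 68.4% of that in wild type for all 37 genes, 68.6% for the mRNAs, 52.1% for the rRNAs and 46.4% for the tRNAs.

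Of the 37 RNAs, 32 averaged 10 or more normalized counts and were tested. With limma on log2 of the normalized count plus 1, and p adjusted over all 13875 genes tested, 7 fell and 0 rose at an adjusted p under 0.05. The 7 were both rRNAs, the mRNAs mt-Nd3 and mt-Co2 and the tRNAs mt-Tl1, mt-Tw and mt-Ti. Over all tested genes 6.12% fell and 4.55% rose by the same rule. No member was higher at an unadjusted p under 0.05 in limma either, whereas 18 were lower. Such values were common in the whole table, where mt-Nd5, with the largest p of the 18 (0.0429), ranked 3685 of 13875 genes by p. With edgeR and DESeq2 on recovered reads 13 and 12 members were lower and 0 higher. Over all genes these tests found 812 of 13875 and 882 of 12357 lower. The fitted change was below 0 for 29 of the 32, with a median log2 fold change of -0.55 against 0.00 for all tested genes, and for 24 and 19 of them when libraries were scaled as CPM of all gene reads or to the mitochondrial mRNAs. In 13 of the 32 every gene-trap library was below every wild-type library, a pattern that 17.7% of all tested genes showed, and in none was the reverse seen, which 14.2% of all genes showed. Leaving out wild-type e, the library with the highest level of 21 of the 34 members with reads, reduced the 7 to 3 (mt-Nd3, mt-Co2 and mt-Ti). Over all tested genes, leaving it out reduced those that fell from 849 of 13875 to 244 of 13883. The calls also depended on how variances were moderated. With no variance trend 0 passed (14 lower at an unadjusted p under 0.05), and 70 of all 13875 tested genes fell. With robust moderation 8 passed, of which 2 were among the 7, and 930 of all 13875 fell.

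**Figure D1:**
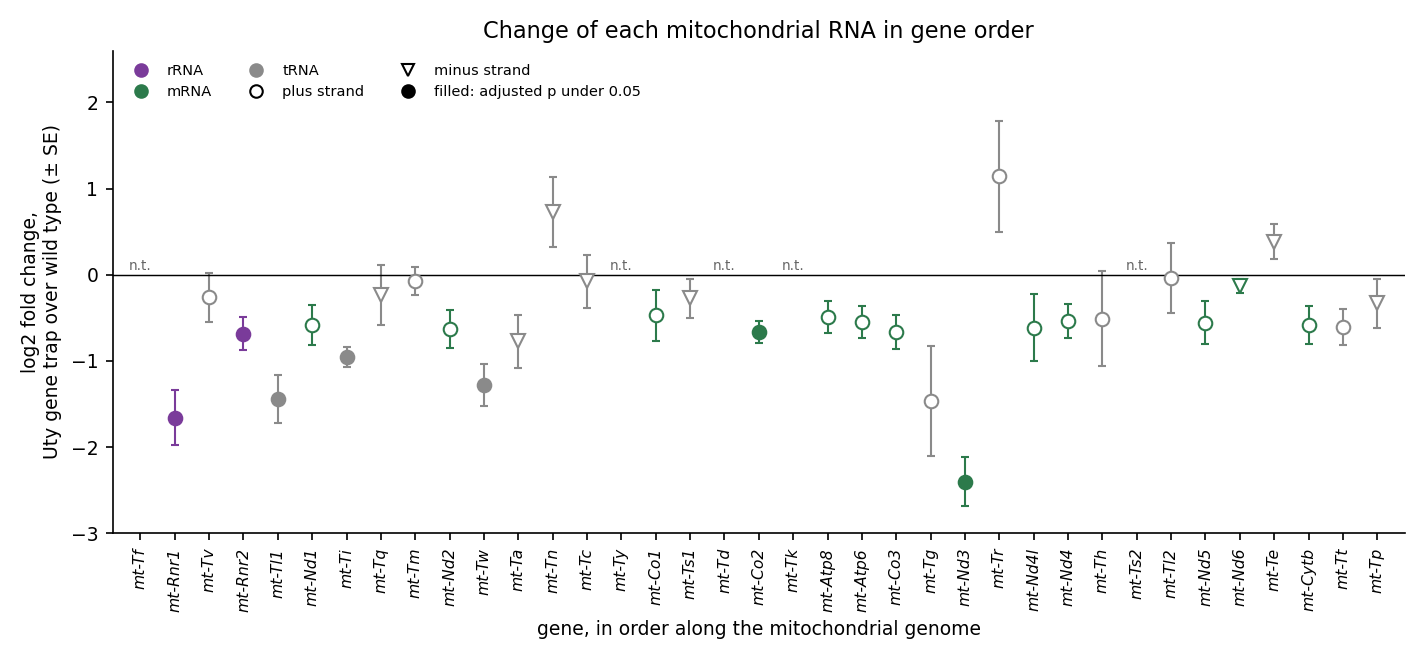
Log2 fold change (Uty gene trap over wild type, limma, ± SE, 3 libraries per group) of each mitochondrial RNA in gene order. Colours give the RNA class, circles the plus and triangles the minus strand, filled symbols an adjusted p under 0.05, and n.t. a gene that was not tested. The 7 filled symbols are all below 0 and all on the plus strand, which holds 24 of the 32 tested genes. mt-Nd3 is the lowest at -2.40, under the deposited size factors.

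By strand, 7 of the 24 tested plus-strand RNAs fell and 0 of the 8 minus-strand RNAs did, beside 6.12% of all tested genes. At that share 8 genes are too few for a count of 0 to tell the strands apart. Median log2 fold changes were -0.60 for the former and -0.18 for the latter. Expressed as CPM of all gene reads or scaled to the mitochondrial mRNAs, the minus-strand median moved above 0 (0.08 and 0.35), but these scalings also moved the median of all genes to 0.27 and 0.54. Relative to the median of all genes, the minus-strand median was then -0.18 under both and the plus-strand median -0.60 and -0.59. The sign of the minus-strand median also rested on gene-trap d, without which it was 0.069, with 3 of the 8 RNAs below 0.

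The rRNAs stand at the start of the plus-strand transcript, mt-Rnr1 for the 12S rRNA of the small and mt-Rnr2 for the 16S rRNA of the large ribosomal subunit. Normalized counts of mt-Rnr1 (ENSMUSG00000064337, 70 to 1024) were 42752, 17932 and 27724 in wild type and 6542, 15441 and 6692 with the trap. The groups did not overlap, but gene-trap e came within reach of wild-type f. The mean went from 29469 ± 12502 to 9558 ± 5095 (SD, n = 3 each), 32.4% of wild type, with a log2 fold change of -1.66 ± 0.32 SE (adjusted p = 0.00911). Without wild-type e its adjusted p was 0.0515. mt-Rnr2 (ENSMUSG00000064339, 1094 to 2675) had 77338, 45306 and 53438 normalized counts in wild type and 34747, 46283 and 28145 with the trap. Here the groups overlapped, since gene-trap e exceeded wild-type f. The fall of mt-Rnr2 was smaller, to 62.0% of wild type (log2 fold change -0.68 ± 0.19, adjusted p = 0.0409), and it passed in 11 of 23 alternatives. It missed the threshold with DESeq2 (adjusted p = 0.145) and when any of wild-type e, wild-type g, gene-trap d or gene-trap f was left out (adjusted p from 0.0773 to 0.171). Over the alternatives tried, adjusted p for mt-Rnr2 ranged from 1.71e-10 to 0.418.

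Levels of both rRNAs are what depletion left. Of the genes that hold residual cytosolic rRNA, n-R5-8s1, a gene for 5.8S rRNA, fell as well, with 62.9, 62.5 and 82.5 normalized counts in wild type and 9.26, 12.9 and 8.03 with the trap. Gm26917, another locus of that list, rose, from 145858, 145867 and 202872 to 234054, 228152 and 228644 (adjusted p = 0.0335). The part of depletion in the rRNA values was not tested. Between the rRNA genes lies the tRNA for valine, mt-Tv, with 34.3, 32.5 and 21.6 normalized counts in wild type and 18.5, 30.4 and 24.1 with the trap, groups that overlap (log2 fold change -0.26 ± 0.29, adjusted p = 0.592). mt-Tf, the tRNA for phenylalanine at the head of the transcript, had 0 reads in every library. A count of 0 allows up to 3 reads, or 1.98 to 3.75 normalized counts depending on the library.

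Of the mRNAs, 6 were far more abundant than the rest, all on the plus strand and none wholly inside the chromosome 1 copy. Per kilobase their order in wild type was mt-Co1, mt-Nd1, mt-Cytb, mt-Nd2, mt-Nd5 and mt-Nd4, and this order of the 6 was the same in all 6 libraries. The wild-type means of these levels ran from 4743940 normalized counts per kilobase for mt-Co1 to 1265440 for mt-Nd4. Neighbours from mt-Nd1 to mt-Nd5 in that order overlapped in their range over the wild-type libraries.

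Each of the 6 was lower in every gene-trap library than in any wild-type library, at 63.9% to 72.2% of the wild-type mean, yet none passed the threshold in limma. Their levels are given in units of 1000000 normalized counts. mt-Co1 (ENSMUSG00000064351, 5328 to 6872), which encodes the catalytic subunit of cytochrome c oxidase (complex IV), had 8.10, 7.54 and 6.36 units in wild type and 4.75, 6.07 and 5.06 with the trap. Its lowest wild-type value, in wild-type g, was close to its highest gene-trap value, in gene-trap e. The log2 fold change of mt-Co1 was -0.47 ± 0.30 (adjusted p = 0.329).

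The same order of libraries recurred in mt-Nd1 (2751 to 3707), a complex I subunit of the membrane arm, with 3.45, 2.99 and 2.45 units in wild type and 1.75, 2.24 and 1.91 with the trap. Its log2 fold change was -0.58 ± 0.23 (adjusted p = 0.120). In mt-Nd2 (3914 to 4951), another such subunit, the values were 2.83, 2.31 and 1.87 against 1.36, 1.67 and 1.45. This was the lowest of the 6 relative to wild type, at 63.9% (log2 fold change -0.63 ± 0.22, adjusted p = 0.0837). For mt-Nd4 (10167 to 11544), also of the membrane arm, they were 2.03, 1.76 and 1.45 against 1.10, 1.32 and 1.15 (log2 fold change -0.54 ± 0.20, adjusted p = 0.0957). In each of these genes wild-type e was the highest and gene-trap d the lowest library.

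mt-Nd5 (11742 to 13565), the subunit at the far end of the membrane arm, had 3.95, 3.50 and 2.69 units in wild type and 1.93, 2.59 and 2.35 with the trap. The log2 fold change of mt-Nd5 was -0.56 ± 0.25 (adjusted p = 0.161). mt-Cytb (14145 to 15288), the mitochondrial subunit of complex III and the last mRNA gene on the plus strand, had 3.26, 2.90 and 2.41 against 1.75, 2.14 and 1.80. It stood at 66.3% of wild type, almost the same as mt-Nd1 near the start of the transcript at 66.5% (log2 fold change of mt-Cytb -0.59 ± 0.22, adjusted p = 0.107). Under quantile normalization the log2 fold changes of all 6 lay between -0.016 and 0.016, and the median of the 13 mRNAs was -0.04 in place of -0.58. That method gives genes of equal rank in each library the same value. These 6 are among the most abundant genes and nearly keep their ranks. Their values near 0 therefore follow from the method and do not show whether their levels changed. In gene order the log2 fold changes of the 6 were -0.58, -0.63, -0.47, -0.54, -0.56 and -0.59. The call on these mRNAs differed between tests. With edgeR, with DESeq2 and with robust variance moderation in limma all 6 passed, at adjusted p from 3.21e-07 to 0.0410.

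**Figure D2:**
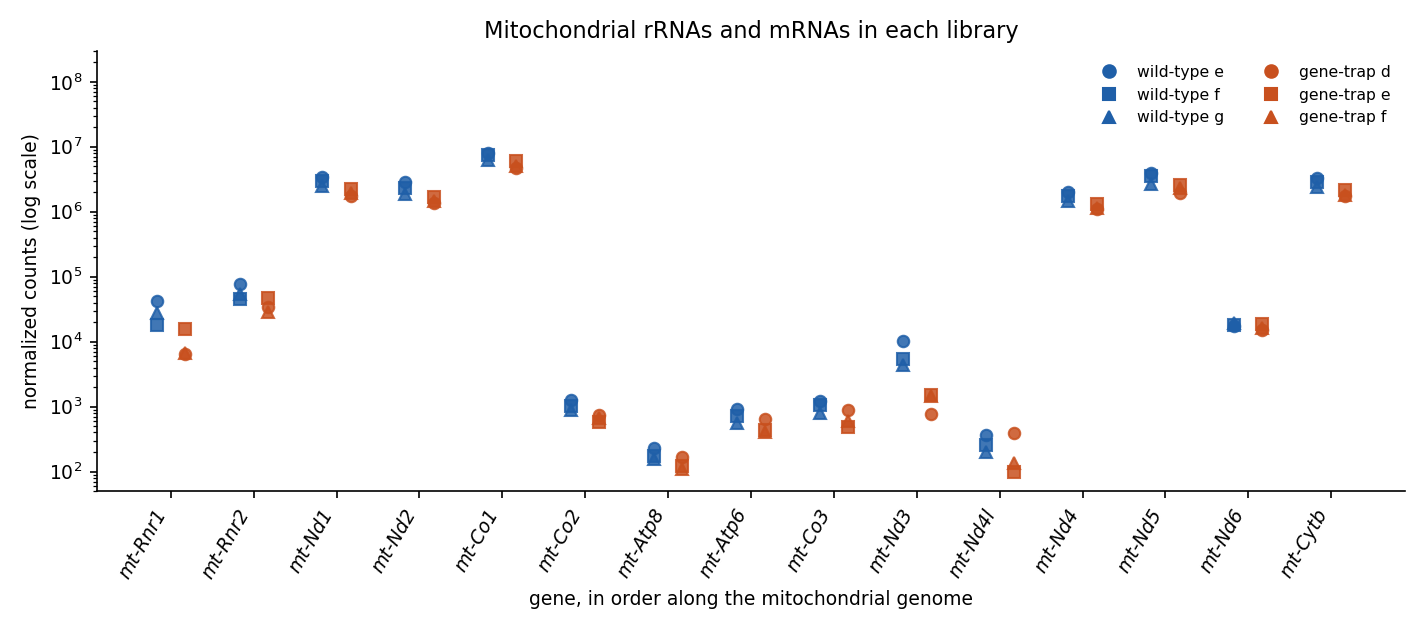
Normalized counts (log scale) of the 2 rRNAs and 13 mRNAs in each of the 6 libraries, in gene order, with wild-type libraries in blue and gene-trap libraries in orange. The 6 most abundant mRNAs each have their orange points below their blue ones, mt-Nd3 shows the widest gap, and mt-Rnr2 and mt-Nd6 overlap.

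The 6 mRNAs inside the copied stretch were counted at far lower levels, although their genes lie on the same strand as the 6 abundant ones. Windows of 50 bases shared with an annotated pseudogene made up 635 of 635 in mt-Co2, 629 of 632 in mt-Atp6, 734 of 735 in mt-Co3 and 245 of 248 in mt-Nd4l. mt-Atp8 lies in the same stretch between annotated pseudogenes, so that 0 of its windows matched one. For mt-Atp8 and the 5 tRNAs a copy is inferred from the spacing of the pseudogenes, and its sequence was not checked here. The sources used here do not say how reads that match more than 1 place were counted. The levels of these mRNAs, and what part of each mRNA its row holds, are therefore uncertain. This includes mt-Nd3 and mt-Co2, whose rows passed the threshold. Per kilobase, wild-type means of the group ran from 914 normalized counts for mt-Atp8 to 1551 for mt-Co2, and mt-Nd3 stood above them at 19427.

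**Figure D3:**
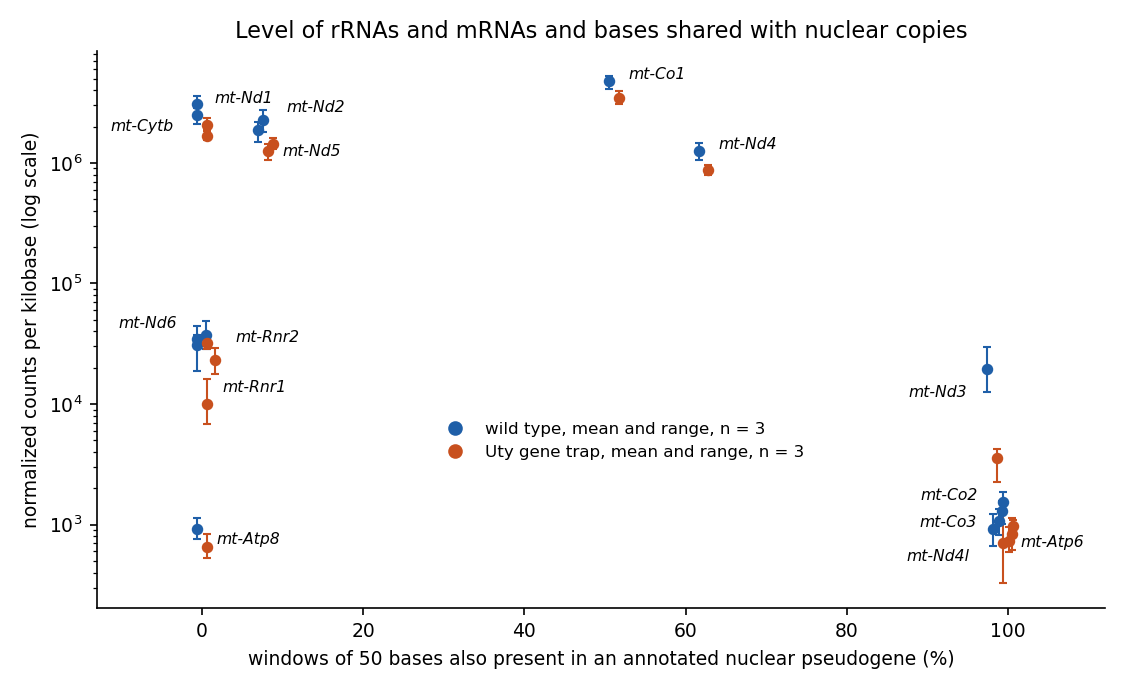
Normalized counts per kilobase (log scale, mean and range over 3 libraries per group) of the rRNAs and mRNAs against the percentage of their 50-base windows that also occur in an annotated nuclear pseudogene. Points of the groups are set slightly apart sideways. The mRNAs at 97.99% or more lie far below mt-Co1 and mt-Nd4, which share 51.1% and 62.2%, and mt-Atp8 is plotted at 0% since no annotated pseudogene covers it.

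mt-Nd3 (ENSMUSG00000064360, 9459 to 9806), a small complex I subunit, had the largest fall of any mitochondrial RNA. Normalized counts were 10385, 5496 and 4400 in wild type and 783, 1486 and 1458 with the trap. The lowest wild-type library was well above the highest gene-trap library. The mean fell from 6761 ± 3187 to 1242 ± 398 (SD, n = 3 each), 18.4% of wild type, with a log2 fold change of -2.40 ± 0.28 (adjusted p = 0.000550). This call was lost only with no variance trend and with robust moderation (adjusted p = 0.0541 and 0.0507) and was kept in the other 21 alternatives. The row of its pseudogene Gm28438, with which it shares the sequence shown above, held far fewer counts, 49.1, 28.7 and 23.1 in wild type and 14.6, 15.2 and 17.2 with the trap. These also lay lower in every gene-trap library (log2 fold change -0.99 ± 0.31, adjusted p = 0.0630). A read from most positions matches both sequences, yet the 2 rows differ widely in counts. Which reads each row holds was not tested.

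mt-Co2 (ENSMUSG00000064354, 7013 to 7696), a copper-binding subunit of cytochrome c oxidase, had 1272, 1025 and 886 normalized counts in wild type and 753, 580 and 663 with the trap. The groups did not overlap, and the fall to 62.7% of wild type passed (log2 fold change -0.66 ± 0.13, adjusted p = 0.00896). mt-Co3 (8607 to 9390), the third core subunit of that complex, had 1233, 1049 and 786 against 891, 482 and 596. Its change was of the same size but gene-trap d exceeded wild-type g (log2 fold change -0.66 ± 0.20, adjusted p = 0.0515).

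The ATP synthase subunits mt-Atp8 (7766 to 7969) and mt-Atp6 (7927 to 8607) are read from overlapping frames of a shared mRNA. mt-Atp8 had 230, 175 and 155 normalized counts in wild type and 169, 122 and 108 with the trap (log2 fold change -0.49 ± 0.19, adjusted p = 0.110). mt-Atp6 had 920, 717 and 558 against 656, 439 and 407 (log2 fold change -0.55 ± 0.19, adjusted p = 0.0786). In both, gene-trap d reached into the range of wild type. mt-Nd4l (9877 to 10173), a complex I subunit whose frame overlaps that of mt-Nd4, had 365, 260 and 197 against 392, 98.4 and 134. Gene-trap d was the highest of all 6 libraries and the other gene-trap libraries the lowest (log2 fold change -0.61 ± 0.39, adjusted p = 0.332). Without gene-trap d the value for mt-Nd4l was -1.20 and passed (adjusted p = 0.00898), as did those of mt-Co3 and mt-Atp6 (-0.91 and -0.76, adjusted p = 0.00665 and 0.0192). The latter pair also passed without wild-type g (adjusted p = 0.0369 and 0.0432). The rows of the pseudogenes on chromosome 1 are not a separate observation. Their aligned bases are 98.8% to 100% identical to the mitochondrial genes, so that a read from most shared positions matches both. Which reads each row holds was not tested. Of 7 such pseudogenes tested, 6 fell, beside 6.12% of all tested genes, with a median log2 fold change of -0.99.

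mt-Nd6 (ENSMUSG00000064368, 13552 to 14070), a complex I subunit, is the only mRNA of the minus strand. Normalized counts were 17171, 17829 and 19308 in wild type and 14983, 18723 and 16030 with the trap. Gene-trap e lay inside the range of wild type, and wild-type e, the highest library for the 6 abundant mRNAs, was the lowest wild-type library here. The mean with the trap was 91.6% of wild type, with a log2 fold change of -0.13 ± 0.09 (adjusted p = 0.347). As a share of all reads in genes it was 0.0452% ± 0.0064 in wild type and 0.0494% ± 0.0026 with the trap (exact two-sided permutation p = 0.4), and its log2 fold change turned to 0.14 as CPM of all gene reads and to 0.41 when scaled to the mitochondrial mRNAs. Per kilobase it was counted at 34880 in wild type, below all 6 abundant mRNAs of the plus strand. The kit marks strand, but the sources used here do not say whether counting used it. Without strand, reads of mt-Nd6 could not be told from those of the precursor transcribed across it in the opposite direction, while annotated mt-Nd5 overlaps it only at one end.

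For the tRNAs, most reads came from a few genes of the plus strand. mt-Tl1, for leucine, alone held 67.9%, 63.9% and 62.9% of the tRNA reads of wild type and 38.4%, 61.6% and 58.1% of those with the trap. Of the 22, 17 were tested, 3 fell and 0 rose, beside 6.12% and 4.55% of all tested genes. The median log2 fold change of the tested tRNAs was -0.27. mt-Td and mt-Tk, like mt-Tf, had 0 reads in every library, and mt-Ts2 and mt-Ty had means under 10 normalized counts. Since tRNA genes are little longer than a read, and their mature RNAs are folded and modified, these counts can include precursors as well as mature tRNA.

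mt-Tl1 (ENSMUSG00000064340, sequence above), directly after mt-Rnr2, had 42266, 31509 and 24544 normalized counts in wild type and 6678, 17640 and 13815 with the trap. The groups did not overlap, and gene-trap d was the lowest by far. Its level was 38.8% of wild type (log2 fold change -1.44 ± 0.28, adjusted p = 0.00973). Without wild-type e the adjusted p for mt-Tl1 was 0.0620. mt-Tw, for tryptophan, which follows mt-Nd2, had 7875, 6688 and 5188 normalized counts against 1614, 3512 and 3362. All gene-trap libraries were lower, and the level was 43.0% of wild type (log2 fold change -1.28 ± 0.24, adjusted p = 0.00780; without wild-type e 0.0527). mt-Ti, for isoleucine, which follows mt-Nd1 and was singled out after its values were seen, had 6606, 6026 and 4890 against 3523, 2722 and 2787. The spread within each group was small (log2 fold change -0.95 ± 0.12, adjusted p = 0.000643), and the fall of mt-Ti was kept in 22 of 23 alternatives.

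mt-Tm, for methionine, is the next gene after mt-Ti on that strand and was also singled out after its values were seen. It had 3825, 3825 and 3195 normalized counts in wild type and 4664, 3413 and 2546 with the trap. Gene-trap d was the highest library and gene-trap f the lowest, so that the wild-type libraries lay between them (log2 fold change -0.07 ± 0.16, adjusted p = 0.823). The difference between mt-Ti and mt-Tm was not tested.

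Of the tRNAs with the lowest fitted changes, the remaining gene was mt-Tg, for glycine, inside the copied stretch just before mt-Nd3. It had 101, 87.4 and 52.4 normalized counts in wild type and 5.95, 48.0 and 65.4 with the trap. Gene-trap d stood far below all others and gene-trap f within the range of wild type (log2 fold change -1.47 ± 0.64, adjusted p = 0.155). At the other end were mt-Tr, mt-Tn and mt-Te. mt-Tr, for arginine, directly after mt-Nd3, had 14.9, 9.99 and 4.63 against 70.8, 8.20 and 14.9, with gene-trap d far above the other libraries (log2 fold change 1.14 ± 0.65, adjusted p = 0.275). mt-Tn, for asparagine, had 6.86, 8.74 and 6.17 against 7.94, 15.2 and 16.1 (0.72 ± 0.41, adjusted p = 0.269). mt-Te, for glutamate, had 203, 210 and 118 against 190, 260 and 228 (0.39 ± 0.20, adjusted p = 0.235), and both of these are minus-strand genes. All 3 overlapped between the groups. mt-Ta, for alanine, was named after its values were seen, as the only minus-strand RNA without overlap. It had 59.4, 38.7 and 52.4 normalized counts in wild type and 17.2, 36.3 and 36.7 with the trap (log2 fold change -0.77 ± 0.30, adjusted p = 0.120). With it, the 8 other tested tRNAs had log2 fold changes from -0.77 to -0.04, none with an adjusted p under 0.0840, at levels of 4.59 to 701 normalized counts.

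**Figure D4:**
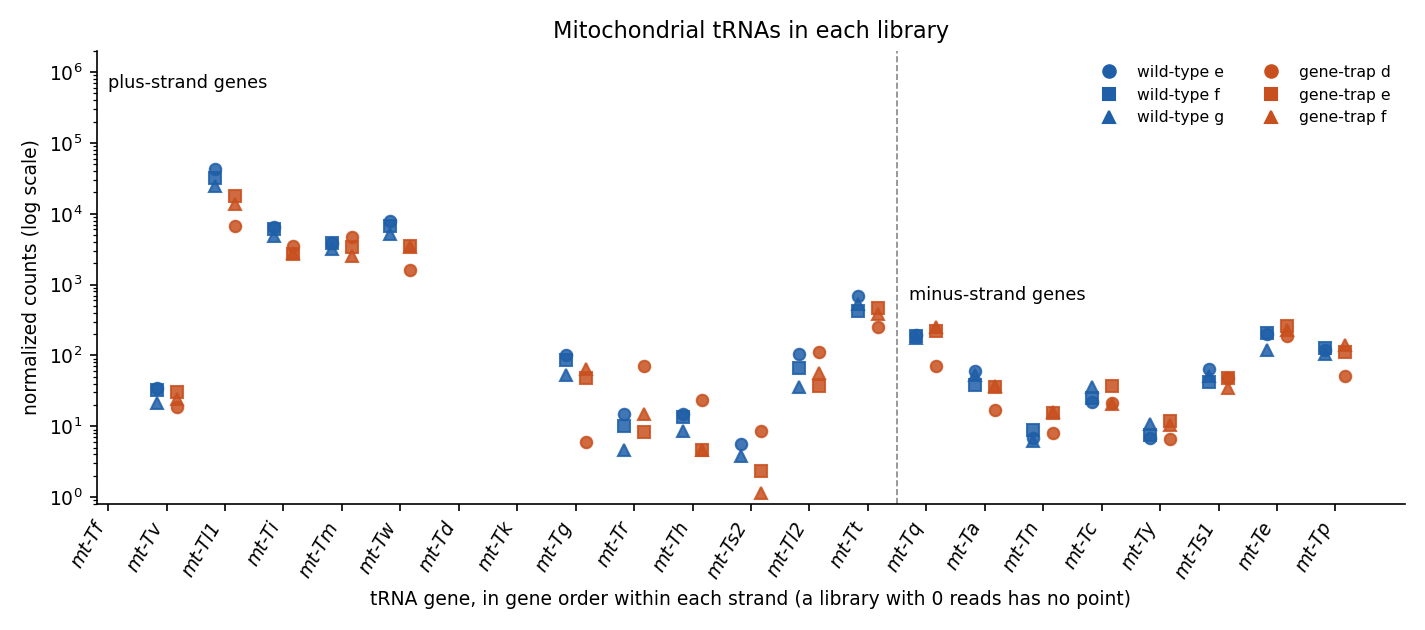
Normalized counts (log scale) of the 22 tRNAs in each of the 6 libraries, with genes of the plus strand left and of the minus strand right of the dashed line, each in gene order. Blue points are wild-type and orange points gene-trap libraries, and mt-Tf, mt-Td and mt-Tk have no points because they had 0 reads. Orange points lie below all blue ones for mt-Tl1, mt-Ti, mt-Tw and mt-Ta, and gene-trap d (orange circle) is often the lowest or the highest.

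Summed by strand, tRNAs of the plus strand reached 45.7% of the wild-type level and those of the minus strand 100.4%. The sums of the 14 plus-strand tRNAs were 61549, 48685 and 38471 normalized counts in wild type and 16967, 27885 and 23061 with the trap. For the 8 minus-strand tRNAs they were 678, 652 and 555 against 414, 744 and 734. Gene-trap d was the lowest in both sums, while the other gene-trap libraries were below wild type for the plus strand and above it for the minus strand. The first sum is largely that of mt-Tl1.

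Ratios between RNAs of the same library do not depend on how libraries were scaled, and 14 pairs were compared. The log2 ratio of mt-Rnr1 to mt-Rnr2, cut from the same transcript, was -0.86, -1.34 and -0.95 in wild type and -2.41, -1.58 and -2.07 with the trap. mt-Rnr1 was lower relative to mt-Rnr2 in every gene-trap library, by a mean of -0.98. Both pairs with mt-Nd3 were also apart, whereas mt-Co3 over mt-Atp6 and mt-Atp8 over mt-Atp6, from the same copied stretch, overlapped. mt-Nd3 over mt-Co3 was 3.07, 2.39 and 2.48 in wild type and -0.19, 1.62 and 1.29 with the trap (difference -1.74), and mt-Nd4l over mt-Nd3 was higher in every gene-trap library (difference 1.79). For minus-strand over plus-strand tRNAs the ratio was -6.50, -6.22 and -6.11 against -5.36, -5.23 and -4.97. The gene-trap libraries were all higher, by a mean of 1.09, and tRNAs over mRNAs were all lower (difference -0.57). These 5 pairs had an exact two-sided permutation p of 0.1, the smallest possible with 3 against 3, and 0.28 after adjustment over the 14 pairs. Taken singly, 17.7% of all tested genes were lower and 14.2% higher in every gene-trap library than in any wild-type library.

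The other 9 pairs overlapped between the groups (exact two-sided permutation p from 0.2 to 0.9). Among them, mt-Nd6 over mt-Nd5, the minus-strand over a plus-strand mRNA beside it, was -7.85, -7.62 and -7.12 in wild type and -7.01, -7.11 and -7.19 with the trap (difference 0.42, exact two-sided permutation p = 0.2). Wild-type g was inside the range of the gene-trap libraries. For mt-Cytb over mt-Nd5 the difference was -0.03, and for mt-Atp8 over mt-Atp6 it was 0.06. mt-Tl1 over mt-Rnr2, its neighbour, had a difference of -0.76 with overlapping groups (exact two-sided permutation p = 0.2).

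**Figure D5:**
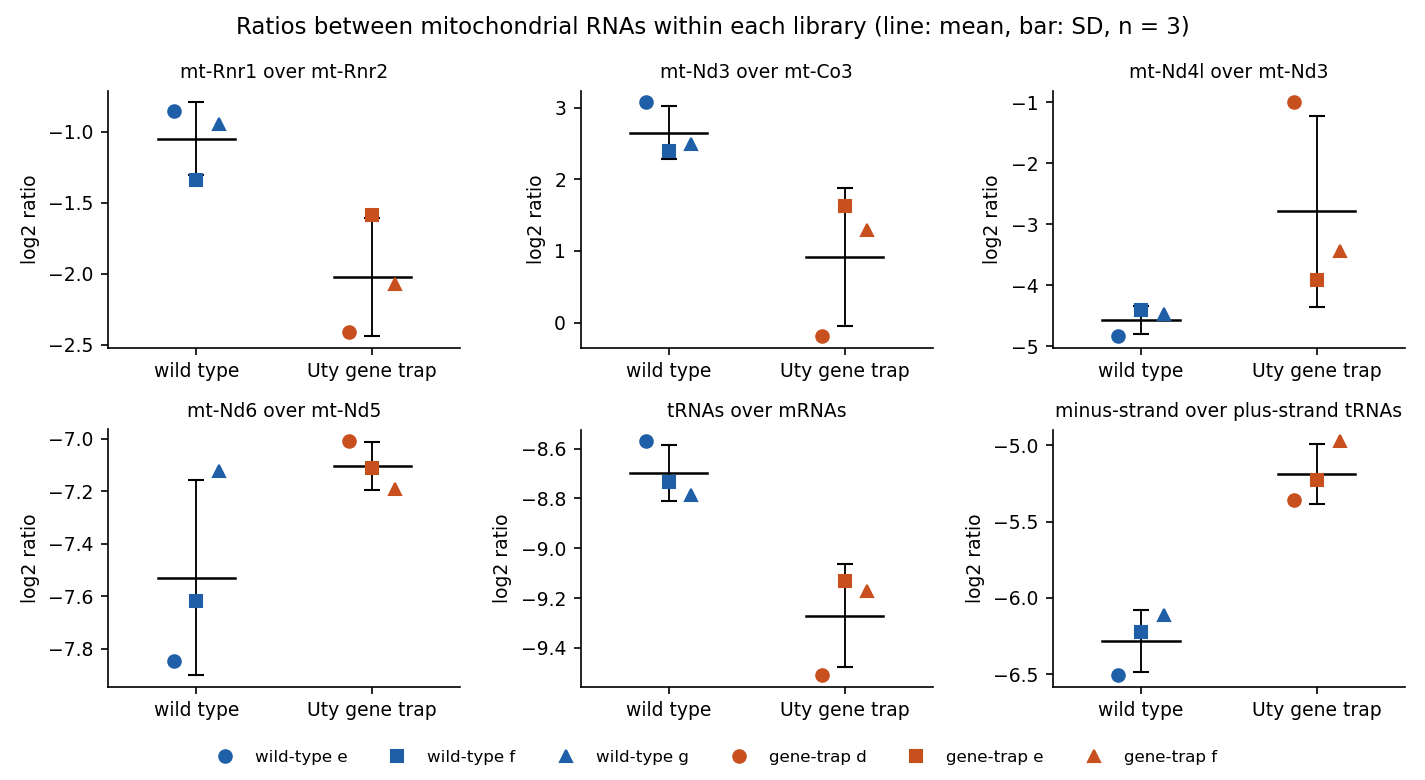
Log2 ratios between mitochondrial RNAs within each library, for 6 of the 14 pairs, with each library as a point, the group mean as a line and the SD as a bar (n = 3). The panels show every pair whose groups were apart, with mt-Nd6 over mt-Nd5 as the only pair shown that overlapped. There wild-type g lies among the gene-trap libraries.

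Nuclear genes that act on mitochondrial DNA and RNA were taken as 5 lists. Of the transcription list 9 of 10 genes were tested, 3 fell and 0 rose, beside 6.12% and 4.55% of all tested genes, with a median log2 fold change of -0.01. Mrpl12, a ribosomal protein also known to bind the mitochondrial polymerase, had 3306, 3095 and 3398 normalized counts in wild type and 2463, 2923 and 2387 with the trap (log2 fold change -0.34 ± 0.08, adjusted p = 0.0235). Mterf3, a member of the MTERF family known as a repressor of mitochondrial transcription, went from 664, 642 and 607 to 466, 522 and 520 (-0.34 ± 0.08, adjusted p = 0.0257). Tfb2m, the factor that opens the promoters for the polymerase, went from 1293, 1200 and 1157 to 1015, 1059 and 917 (-0.29 ± 0.08, adjusted p = 0.0386). The groups did not overlap in any of these. The members that fell include a repressor beside activators.

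None passed of 15 genes for replication and copy number of mitochondrial DNA, of 16 tested genes for cleavage and maturation of the tRNAs, or of 13 for modification of the rRNAs. Of 18 genes for stability and decay of the mRNAs, 2 rose and 0 fell, beside the same 4.55% and 6.12% of all tested genes. They were Slirp, a partner of Lrpprc in keeping mitochondrial mRNAs stable (401, 417 and 463 normalized counts in wild type and 524, 568 and 519 with the trap, log2 fold change 0.33 ± 0.09, adjusted p = 0.0371), and Pde12, which removes poly(A) tails in the organelle (697, 651 and 646 against 770, 904 and 794, 0.30 ± 0.08, adjusted p = 0.0394).

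Nuclear genes for the same respiratory complexes had medians near or above 0. For complex I, 7 of 36 nuclear subunit genes rose and 0 fell, with a median log2 fold change of 0.10, beside -0.58 for its 7 mitochondrial subunits. Ndufb4 had the smallest adjusted p of these (log2 fold change 0.79 ± 0.12, adjusted p = 0.00207). For complex III 0 of 9 passed, for complex IV 3 of 14 rose and 2 fell, and for ATP synthase 2 of 16 rose and 1 fell. Medians of these lists were 0.04, 0.07 and 0.15, beside -0.59, -0.66 and -0.52 for their mitochondrial subunits. The latter rest on 1, 3 and 2 genes, and mt-Co2, mt-Co3, mt-Atp6 and mt-Atp8 among them lie in the copied stretch. mt-Co1, the other complex IV gene, had -0.47 (adjusted p = 0.329 in limma). Of the 13 mitochondrial mRNAs 2 passed. In complex IV, Cox7a2 rose (0.70 ± 0.12, adjusted p = 0.00450) and Cox8a fell (-0.43 ± 0.08, adjusted p = 0.00897). The shares of genes that passed in these lists stand beside 10.7% of all tested genes in either direction.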

How the data were processed

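Cardiomyocyte RNA was treated with DNase, depleted of rRNA and made into stranded libraries, read as single 50-base reads. The study's methods name the TruSeq Stranded mRNA kit for these libraries and do not say whether poly(A) RNA was selected. The part of such a selection in the levels of rRNAs, tRNAs and mt-Nd6 was not tested. The submitters' notes and the study's methods name CASAVA 1.4, STAR 2.5.1b for alignment (GRCm38), featureCounts 1.6.0 for counts per Ensembl gene and DESeq2 1.22.2. The sources used here do not say how multi-mapping reads and strand were treated. The deposited signal values are read counts that the authors divided by a size factor per library. All values were whole multiples of that of 1 read (100% in each library, tolerance 0.001), which gave back whole reads for depths, shares and count tests. Columns of the authors' own comparison (log2 fold changes, standard errors, Wald statistics, p-values) were not used. The 123 rows without a symbol held 0.00343% of reads and were kept under their identifiers.

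Groups were compared with limma 3.58.1 (lmFit, eBayes with a variance trend; R 4.3.3) on log2(normalized count + 1) for the 13875 genes with a mean of at least 10, with Benjamini-Hochberg adjustment over all of them; p-values are two-sided and "rose" and "fell" mean an adjusted p under 0.05. The fit was tested on simulated data. Shares and ratios were compared with exact permutation tests. Pairs of libraries within a group were further apart than counting error (chi-square over its degrees of freedom, 10.1 to 50.0); nothing in the labels beyond separate isolations says that they came from different animals, and floors cover counting error only. Annotation and sequences of genes, pseudogenes and tRNAs were taken from GENCODE M21 (GRCm38). Values in every library were given for rRNAs, mRNAs, mt-Tl1, mt-Tf and mt-Tv. They were also given for the 3 tested tRNAs with the highest and the 3 with the lowest fold changes. Genes of the nuclear lists were named only where they passed, at most 4 per list, and not every gene that passed was named. The members, lists and rules were chosen with earlier results of these data known. Alternatives were edgeR 4.0.16 (quasi-likelihood, TMM), DESeq2 1.42.0, other pseudocounts, filters, scalings, variance moderation and thresholds, a replicate block, and leaving out each library.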

Additional observations from a re-analysis of the deposited data

How the results depend on the processing

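The number of mitochondrial RNAs that fell was 7, and over the 23 alternatives it was 13 with edgeR, 12 with DESeq2, 18 with no filter on low values, 0 with no variance trend (14 at an unadjusted p under 0.05) and 3 to 9 when a library was left out, with the lowest count without wild-type e; the other settings gave 6 to 10. With the letters e and f as a replicate block it was 18; these letters are shared by the groups but are not stated to pair isolations, and the deviations of same-letter libraries correlated at 0.11 and 0.15. Over all tested genes 849 of 13875 fell in the main fit. It was 70 of 13875 with no variance trend, 1045 of 34219 with no filter and 244 of 13883 without wild-type e. With the block mt-Tm was among the RNAs that passed as lower (log2 fold change -0.38, adjusted p = 0.0208), and the minus-strand median was 0.12. The number that rose was 1 (mt-Te) as CPM of all gene reads and 5 when scaled to the mitochondrial mRNAs, settings that moved all genes upward. In that scaling the log2 fold changes of mt-Co1, mt-Atp8, mt-Nd6, mt-Tv and mt-Tm turned to 0.070, 0.045, 0.41, 0.26 and 0.47; as CPM of all gene reads those of mt-Nd6 and mt-Tm turned to 0.14 and 0.20; mt-Cytb turned to 0.016 under quantile normalization, where all 6 abundant mRNAs lay within 0.016 of 0, mt-Tr to -0.13 with the replicate block and mt-Tm to 0.15 without gene-trap f (lowest with a library left out -0.29, without gene-trap d). For the 6 abundant mRNAs, values near 0 under quantile normalization follow from its equal values for equal ranks. The cause of the other changes was not tested. Differences in log2 ratio that crossed 0 when a library was left out ranged from -0.051 to 0.28 for mt-Nd1 over mt-Rnr2, -0.72 to 0.41 for mt-Nd4l over mt-Nd4, -0.20 to 0.0065 for mt-Co3 over mt-Atp6, -0.36 to 0.0020 for mt-Co2 over mt-Co1 and -0.096 to 0.026 for mt-Cytb over mt-Nd5. The difference in the share of reads held by mitochondrial genes stayed between -11.1 and -7.19 percentage points without any single library and was -8.87 without the rRNA genes. Low tRNA counts and reads shared with nuclear copies limit what these data resolve.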
